A study of Rattus norvegicus with 12 samples.

Results

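Smooth muscle contractile genes, 10 in number, were followed in rat intestine before and after surgery on the gut. They are Acta2, Actg2, Myh11, Mylk, Cnn1, Tagln, Lmod1, Des, Synpo2 and Myocd, and all 10 are among the 18749 genes of the deposited count table. They were chosen by name, but with earlier results of these data known. Shares of members called, set beside those of all genes, are therefore a description and not independent support. RNA was sequenced from 12 intestinal samples of wild-type rats, in 3 groups of 4 libraries. The postSTC group was taken after the operation and the preSTC group before it, and the preCTC group was taken before a sham operation. Samples from after the sham operation were not analysed here. Effects of the surgery and of elapsed time between preSTC and postSTC therefore cannot be told apart. The labels do not spell out STC or CTC and name no strain, age or stretch of gut, and they place every sample in batch 1. Whether the groups come from the same stretch of gut is therefore not known. In comparisons with preCTC, group and a possible difference in stretch of gut cannot be told apart. They do not say whether the libraries of a group came from separate animals, so the p-values measure only how far these samples spread, possibly for technical reasons. Replicates are numbered 1, 5, 7 and 9 in preSTC and preCTC, and 1, 2, 5 and 7 in postSTC. A library is called by its group and number below (postSTC7 is replicate 7 of postSTC).

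Smooth muscle forms the outer muscle coats of the gut, the thin muscularis mucosae and the walls of blood vessels. Calcium entering the cell leads to activation of myosin light-chain kinase, which phosphorylates the regulatory light chain so that smooth muscle myosin can pull on actin filaments. Myosin light-chain phosphatase reverses the step. The transcription factor SRF binds CArG boxes near many contractile genes, and its coactivator myocardin drives their expression in muscle cells.

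All 10 genes had their lowest group mean in preSTC. Calls here are from edgeR at an adjusted p under 0.05. Lmod1, Synpo2, Cnn1, Tagln and Acta2 were called higher in postSTC than in preSTC, by 1.78- to 2.71-fold, beside 11.1% of all genes tested. Before surgery, 9 of the 10 genes were called lower in preSTC than in preCTC, beside 19.6% of all genes tested. Cnn1 and Tagln stood lowest against preCTC, at 25.7% and 27.3% of its mean. In postSTC the means of 9 genes lay between those of the other groups. Actg2, Cnn1 and Tagln were still called lower than in preCTC, beside 7.37% of all genes tested. Mylk was the exception, with a postSTC mean at 109% of that of preCTC and no test passed in any comparison.

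Library totals ran from 30095656 to 39374682 counts. One library stood apart in its content: 40.1% of the counts of postSTC7 came from 7 listed genes of the seminal vesicle and prostate, glands beside the male urinary tract. The same 7 genes took 0.0229%, 0.0167% and 0.0197% of the counts in postSTC1, postSTC2 and postSTC5 and 0.0185% in preSTC7, and 0 to 7 counts in each of the other 7 libraries. Several results that rest on postSTC7 are therefore also given without it, and for some others only the range with one library left out is given. Levels are CPM, counts scaled to library size, corrected by a TMM factor that is set by the bulk of the genes. That factor was 0.568 in postSTC7 and 0.970 to 1.15 in the other libraries, so levels in postSTC7 are relative to its other transcripts. Epithelial markers were detected in every library, with Epcam, an epithelial adhesion protein, at 1067 to 2361 CPM.

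Because the members moved together, the 250 bases before and 50 after the annotated starts were searched for sites of the smooth muscle regulators. Promoters came from RefSeq on the GRCr8 rat assembly, and 6 of the 10 members had one (Acta2, Actg2, Mylk, Cnn1, Des and Synpo2). Of these, 3 are printed, 5′ to 3′ along the gene: Acta2, whose window holds CArG-like elements, Actg2, which encodes the sister actin and whose window holds none, and Mylk, the member with the smallest difference before surgery. Capitals mark the matches. Acta2 lies on the minus strand at chr1:241172454-241172753, Actg2 on the minus strand at chr4:117593990-117594289 and Mylk on the minus strand at chr11:79498525-79498824.
Acta2: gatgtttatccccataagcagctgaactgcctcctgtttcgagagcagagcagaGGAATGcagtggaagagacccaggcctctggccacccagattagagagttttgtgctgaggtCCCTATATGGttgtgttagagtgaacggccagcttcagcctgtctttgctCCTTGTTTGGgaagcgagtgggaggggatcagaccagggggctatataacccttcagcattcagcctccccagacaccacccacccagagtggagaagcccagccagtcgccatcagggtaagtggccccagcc
Actg2: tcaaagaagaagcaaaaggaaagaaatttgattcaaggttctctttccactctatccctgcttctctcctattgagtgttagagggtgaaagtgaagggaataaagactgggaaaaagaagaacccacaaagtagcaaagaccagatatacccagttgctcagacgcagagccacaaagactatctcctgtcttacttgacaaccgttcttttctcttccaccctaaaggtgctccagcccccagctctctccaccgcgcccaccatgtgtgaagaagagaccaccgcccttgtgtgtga
Mylk: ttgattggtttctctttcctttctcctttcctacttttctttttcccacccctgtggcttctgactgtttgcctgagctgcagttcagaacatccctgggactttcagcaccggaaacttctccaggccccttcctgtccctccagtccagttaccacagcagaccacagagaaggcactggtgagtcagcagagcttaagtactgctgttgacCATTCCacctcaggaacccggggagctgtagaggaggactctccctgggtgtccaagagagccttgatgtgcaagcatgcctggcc
In the Acta2 promoter the second and the third capital run, CCCTATATGG at -134 to -125 and CCTTGTTTGG at -84 to -75 from the start, match a CArG box when 1 G or C is allowed among its 6 central bases. The first capital run is an MCAT element, the letters CATTCC, on the opposite strand at -196 to -191; MCAT elements are bound by TEAD factors. The Mylk window holds one MCAT element at -36 to -31, and no match was found in the Actg2, Cnn1, Des and Synpo2 windows. Both strands were searched and no 2 matches overlapped. Of 33469 rat promoter windows of the same length, 1.64% hold a strict CArG box, 9.42% a CArG-like element and 14.2% an MCAT element. A match is a description of letters and not a measured binding site. The windows follow annotated starts, which may not be the starts used in this tissue. A window without a match, such as that of Actg2, therefore does not show that the gene's promoter lacks such elements.

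Per unit of transcript length, the actins and Tagln were the most abundant members in every library. On the deposited FPKM scale (fragments scaled to transcript length and library total), the preSTC means were 723 for Actg2, 673 for Tagln and 368 for Acta2. Des followed at 219, Cnn1 at 178, Myh11 at 128 and Mylk at 94.5 FPKM. Synpo2 and Lmod1 both lay at 12.8 FPKM and Myocd, which encodes a transcriptional coactivator and no structural protein, at 0.736. Within the 12 libraries Tagln ranked 1 or 2, Actg2 1 to 3 and Acta2 2 or 3, so the order of these 3 was not settled beyond the spread of the libraries. Cnn1 and Des shared ranks 4 and 5, and Lmod1 and Synpo2 ranks 8 and 9. Myh11 was always 6, Mylk always 7 and Myocd always 10.

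The 10 genes together took 0.359 to 0.548% of the counts of a library in preSTC, 0.568 to 0.858% in postSTC and 1.17 to 2.01% in preCTC. Their summed level was 3701 to 5598 CPM in preSTC, 6544 to 10021 CPM in postSTC and 10961 to 18436 CPM in preCTC, so the 3 ranges did not overlap. Library postSTC7 had both the lowest share of postSTC, 0.568%, and, after its TMM factor, the highest sum, 10021 CPM. The other postSTC libraries took 0.672 to 0.858% of counts and summed to 6544 to 7809 CPM. In whole tissue, fewer smooth muscle cells and less of these RNAs per cell cannot be told apart. Within preCTC, preCTC5 was the highest library for 9 of the 10 genes, and within preSTC, preSTC1 was the lowest for 9. Within postSTC, postSTC7 was the highest for 8.

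**Figure D1:**
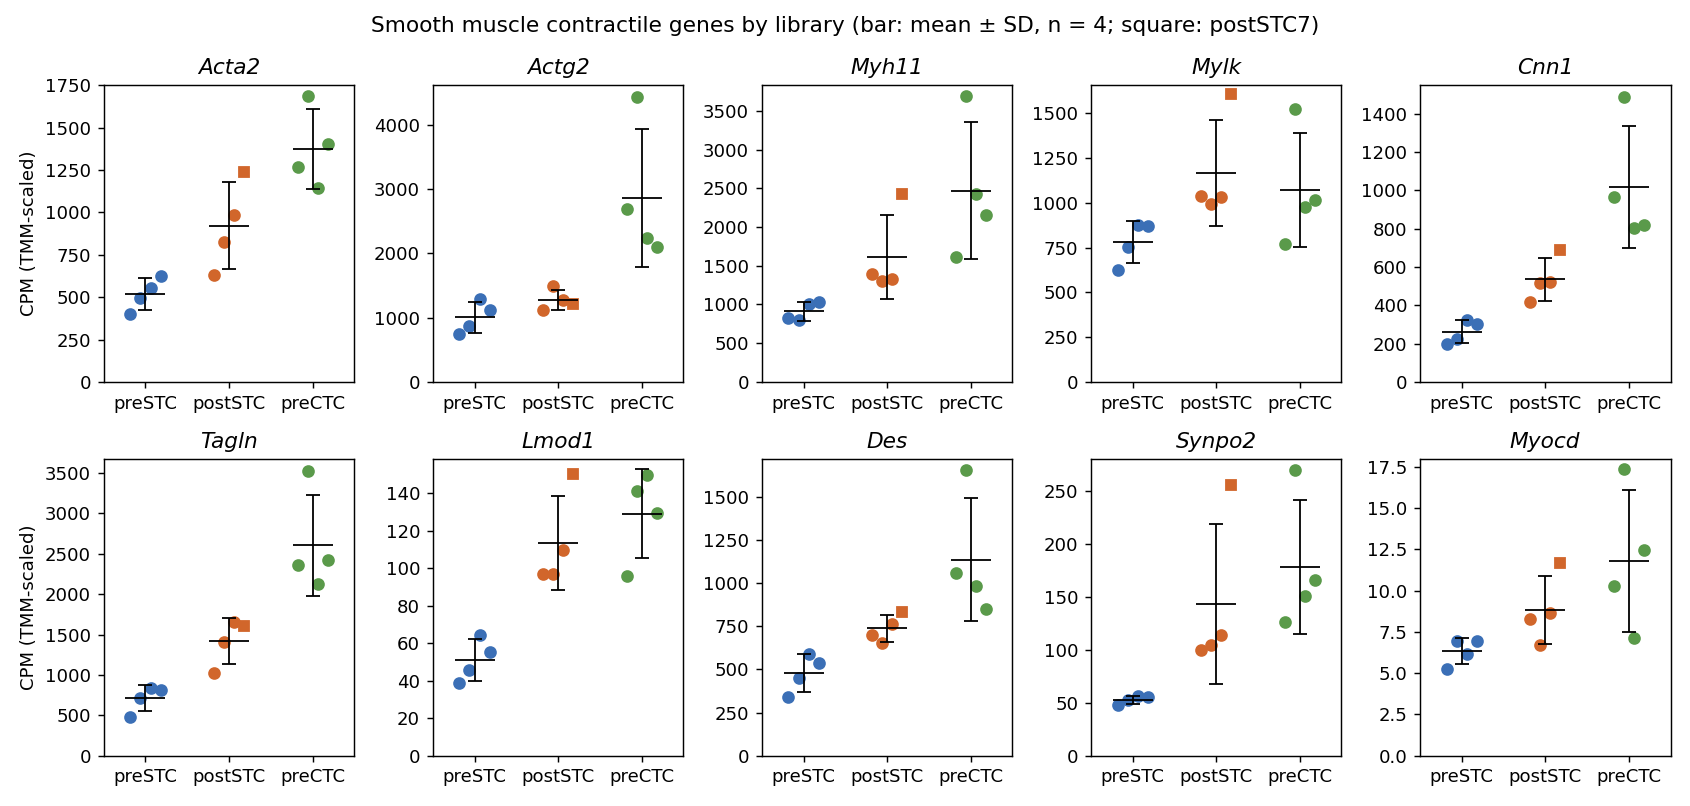
Level of each of the 10 contractile genes in CPM (linear axes from 0) in the 12 libraries, with a point for each library, a square for postSTC7 and bars for the mean and SD of each group (n = 4). Every preSTC library lies below every preCTC library for all genes but Mylk, and the postSTC mean lies between theirs for 9 genes.

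The actins form the thin filament. Acta2, the alpha actin that predominates in vascular smooth muscle, measured 398, 492, 555 and 622 CPM in preSTC1, 5, 7 and 9. It measured 632, 826, 984 and 1241 CPM in postSTC1, 2, 5 and 7, and 1268, 1687, 1141 and 1400 CPM in preCTC1, 5, 7 and 9. The preSTC libraries lay below all others, while postSTC7 reached into the preCTC range. Actg2, the gamma actin typical of visceral muscle, measured 746, 864, 1284 and 1122 CPM in the preSTC libraries and 1121, 1488, 1283 and 1209 CPM in the postSTC libraries. In preCTC it measured 2692, 4440, 2236 and 2109 CPM, above every other library. Before and after the operation the Actg2 levels overlapped, and preSTC7 was higher than postSTC7. Actins are near-identical in their coding sequence, and the sources used here do not say how reads matching several of them were counted. Acta1, the skeletal actin, was listed at 784 CPM in postSTC7 against 12.2 to 112 CPM in the other libraries, so the actin values of postSTC7 are uncertain. Other striated muscle genes were not high there: Ckm, the muscle creatine kinase, was at 7.03 CPM, and Myh1, Myh7, Actc1, Mb and Ttn had no count.

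The motor and its kinase are linked through the light chain that the motor carries and the kinase phosphorylates. Myh11, the smooth muscle myosin heavy chain, measured 819, 798, 1006 and 1031 CPM in preSTC. It measured 1400, 1303, 1334 and 2422 CPM in postSTC and 1614, 3691, 2430 and 2150 CPM in preCTC. All postSTC libraries were above all preSTC libraries, and postSTC7 alone lay within the preCTC range. Mylk, the myosin light-chain kinase gene, measured 627, 754, 874 and 872 CPM in preSTC, 1038, 993, 1031 and 1609 CPM in postSTC, and 772, 1523, 977 and 1013 CPM in preCTC. Its preSTC and preCTC ranges overlapped, through preCTC1. The Mylk row holds all products of the gene in one count, so the long and short kinases and telokin were not separated.

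Calponin, transgelin and leiomodin act on the thin filament. Cnn1, calponin, which inhibits the myosin ATPase, measured 196, 225, 323 and 300.3 CPM in preSTC. It measured 418, 514, 522 and 689 CPM in postSTC and 965, 1485, 804 and 817 CPM in preCTC, with no overlap between any pair of groups. Tagln, transgelin or SM22, which crosslinks actin, measured 484, 719, 839 and 808 CPM in preSTC. In postSTC it measured 1030, 1405, 1661 and 1600 CPM, and in preCTC 2358, 3525, 2124 and 2425 CPM, again in 3 ranges apart. Lmod1, leiomodin, which nucleates actin filaments, measured 38.8, 45.7, 64.2 and 55.5 CPM in preSTC and 96.7, 97.1, 109.9 and 150.4 CPM in postSTC. Its preCTC values of 96.0, 141, 150.0 and 129 CPM covered nearly the same range as postSTC.

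Desmin and synaptopodin-2 belong to the filament and dense body scaffold, and myocardin to its transcriptional control. Des, the muscle intermediate filament, measured 339, 449, 591 and 535 CPM in preSTC, 701, 656, 762 and 833 CPM in postSTC and 1060, 1657, 983 and 849 CPM in preCTC. The highest postSTC library lay just under the lowest preCTC library. Synpo2, an actin-binding protein of dense bodies, measured 47.6, 52.9, 56.1 and 55.0 CPM in preSTC and 99.6, 104, 114 and 256 CPM in postSTC. In preCTC it measured 126, 270, 151 and 166 CPM, so all postSTC libraries but postSTC7 lay below that group. Myocd measured 5.27, 6.97, 6.16 and 6.98 CPM in preSTC, 8.28, 6.70, 8.65 and 11.6 CPM in postSTC and 10.3, 17.4, 7.12 and 12.5 CPM in preCTC. It was the weakest signal of the 10, with 181 to 686 counts per library, and postSTC2 fell inside the preSTC range.

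The first comparison asked how the genes differed after the operation, postSTC against preSTC. In edgeR's quasi-likelihood test across 15704 genes, 5 of the 10 members were higher and 0 were lower, at an adjusted p under 0.05. All 10 fold changes were above 1, and the 8 genes other than Actg2 and Myocd had all postSTC libraries above all preSTC libraries. Of all genes tested, 11.1% were called higher and 6.9% lower, 18% in either direction. By ranges that did not overlap, 11.9% lay above and 10.2% below, 22.1% in all. The median log2 fold change was 0.83 over the members and 0.04 over all genes tested.

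Lmod1 rose from 51.1 ± 11.1 CPM to 114 ± 25.3 CPM (SD, n = 4 each), which is 1.15 ± 0.20 (SE) on the log2 scale in edgeR, adjusted p = 0.00327. Synpo2 rose by 1.44 ± 0.31 on the log2 scale (edgeR, adjusted p = 0.00998), from 52.9 ± 3.78 to 143 ± 75.3 CPM. Tagln rose 2.00-fold, from 712 ± 160 to 1424 ± 285 CPM (edgeR, adjusted p = 0.0128), and Cnn1 rose 2.05-fold, from 261 ± 60.5 to 536 ± 113 CPM (edgeR, adjusted p = 0.013). Acta2 rose from 517 ± 95.2 to 921 ± 257 CPM (edgeR, adjusted p = 0.0217). The other 5 members did not pass: Myh11 had a log2 fold change of 0.82 ± 0.27 (edgeR, adjusted p = 0.0543), Des 0.62 ± 0.22 (0.0704), Mylk 0.58 ± 0.23 (0.097), Myocd 0.47 ± 0.26 (0.22) and Actg2 0.34 ± 0.25 (0.365). DESeq2 called Myh11 and Des as well, 7 members in all.

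Without postSTC7 the 5 called genes were the same, with log2 fold changes of 0.98 for Lmod1, 0.99 for Synpo2, 0.93 for Tagln, 0.88 for Cnn1 and 0.64 for Acta2, and the median over the members was 0.60. Same-numbered libraries of the 2 groups deviated together, so the fit with the replicate number as a block is given too. With the block and all 12 libraries, edgeR called 4 members, Lmod1 (adjusted p = 0.00289), Tagln (0.0271), Synpo2 (0.029) and Acta2 (0.0367), while Cnn1 had an adjusted p of 0.0511. With the block and only the 8 libraries compared, Lmod1 alone passed (edgeR, adjusted p = 0.0408), and the other 4 had adjusted p-values of 0.0694 to 0.0917. In that fit 66 genes in all were called, against 2833 without the block. The Acta2 call was also lost without postSTC5, preSTC1 or preSTC5, with adjusted p-values of 0.0506, 0.0674 and 0.0586.

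Replicate numbers 1, 5 and 7 exist in both groups. In all 3 of these pairs the postSTC library was higher for 9 of the 10 members. For the 8 members whose ranges did not overlap, any pairing of the libraries would give this. The count is therefore no support beyond those ranges, and the labels do not say that the numbers pair samples. Actg2 was higher in 2 of 3, falling to 0.941 times its partner in pair 7. The ratio within a pair was 2.34 to 2.49 for Lmod1, 2.13 to 2.32 for Cnn1 and 1.91 to 2.31 for Tagln, a narrow spread. It was wider for Synpo2, at 2.09 to 4.56, and the upper end came from pair 7. For Acta2 it was 1.59 to 2.24, for Myh11 1.67 to 2.41, for Des 1.41 to 2.07, for Myocd 1.24 to 1.89 and for Mylk 1.37 to 1.84.

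The second comparison set the groups side by side before any operation, preSTC against preCTC. It shares the preSTC libraries with the first comparison, so low preSTC values move both comparisons, in opposite directions. In edgeR's test 9 of the 10 members were lower in preSTC and 0 higher, and Mylk did not pass. Of all genes tested, 19.6% were called lower and 19.1% higher, 38.7% in either direction, so a large part of the table differed between these groups before surgery. A difference in the stretch of gut sampled cannot be told apart from the group here. The 9 genes had all preSTC libraries below all preCTC libraries, as did 22.5% of all genes. The median log2 fold change was -1.42 over the members and -0.02 over all genes. With the replicate number as a block edgeR again called 9.

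Cnn1 was lower by the widest margin, with a log2 fold change of -1.96 ± 0.24 (edgeR, adjusted p = 0.000102) and means of 261 ± 60.5 CPM in preSTC and 1018 ± 320 CPM in preCTC. Tagln was next, at -1.87 ± 0.23 (edgeR, adjusted p = 0.000106). Synpo2 stood at -1.75 ± 0.31 (adjusted p = 0.00112) and Actg2 at -1.51 ± 0.26 (0.000782), both from edgeR. Myh11, Acta2, Lmod1 and Des had log2 fold changes of -1.44, -1.41, -1.34 and -1.25, with edgeR adjusted p-values of 0.000316 to 0.00168. Myocd was lower by the smallest called amount, at -0.90 ± 0.26 (edgeR, adjusted p = 0.0167), and its call rested on preCTC5: without that library it was -0.65 (adjusted p = 0.0525). Mylk had a log2 fold change of -0.45 ± 0.23 (edgeR, adjusted p = 0.134).

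The third comparison asked how far postSTC lay from preCTC. It shares its libraries with the first and the second comparison, so its values are given side by side and not as separate support. The members Actg2, Cnn1 and Tagln (3 of 10) were lower in postSTC (edgeR), and 0 were higher. Of all genes tested, 7.37% were called lower and 9.27% higher, 16.6% in either direction. All postSTC libraries lay below all preCTC libraries for 4 members (those 3 and Des) and for 8.6% of all genes, and above them for 9.54% of all genes. The median log2 fold change was -0.60 over the members and 0.04 over all genes. Actg2 reached 44.4% of the preCTC mean in postSTC, from 35.0% in preSTC, with a log2 fold change of -1.17 ± 0.25 (edgeR, adjusted p = 0.00883). Cnn1 reached 52.7% and Tagln 54.6% of preCTC, with log2 fold changes of -0.93 ± 0.24 and -0.87 ± 0.23 (edgeR, adjusted p = 0.0207 and 0.0224). Lmod1 reached 87.9%, from 39.5% in preSTC, and its difference from preCTC was -0.19 ± 0.19 (edgeR, adjusted p = 0.562), which does not show that the levels were equal.

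The third comparison leaned on single libraries. Without postSTC7, 6 members were lower, with Acta2 at -0.76 (edgeR, adjusted p = 0.0171), Myh11 at -0.88 (0.0222) and Synpo2 at -0.75 (0.026) joining the 3. Without postSTC2, Cnn1 and Tagln missed the threshold (edgeR, adjusted p = 0.0517 and 0.0539), and without preCTC5 Tagln did (0.0578). With the replicate number as a block edgeR called 2 members from all 12 libraries and 0 from the 8 compared. Same-numbered libraries of these 2 groups did not all deviate together, and the labels do not say that the numbers pair samples.

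**Figure D2:**
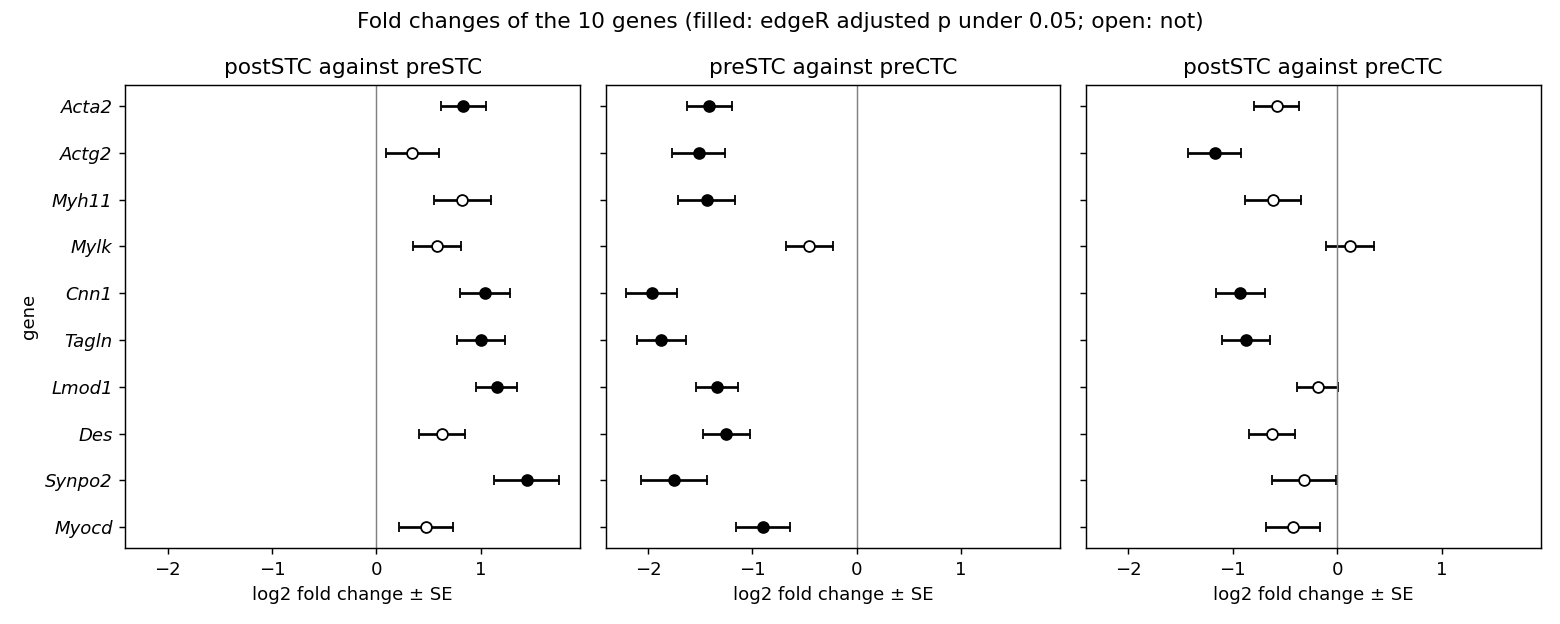
log2 fold change with its SE for each of the 10 genes in the 3 comparisons, fitted with edgeR on 12 libraries, 4 a group. All 10 values lie above 0 for postSTC against preSTC and below 0 for preSTC against preCTC, and Lmod1, Synpo2 and Mylk lie nearest 0 for postSTC against preCTC. Both comparisons with preSTC use the same preSTC libraries.

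The members varied together from library to library. Over the 12 libraries the 45 pairwise Pearson correlations of log2 CPM ran from 0.481 for Actg2 with Mylk to 0.985 for Cnn1 with Tagln, with a median of 0.875. The libraries fall in 3 groups of unlike level, so these describe a shared pattern and carry no test. Each gene was also set against the mean of the other 9, where Cnn1 had the highest correlation, 0.982, and Mylk the lowest, 0.745.

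Ratios compared partners within a library for 3 pairs of genes, which removes the scaling of the library. The log2 ratio of Actg2 to Acta2, visceral over vascular actin, was 0.95 ± 0.18 in preSTC, 0.51 ± 0.42 in postSTC and 1.01 ± 0.33 in preCTC (SD, n = 4). The difference of -0.44 after the operation did not pass (two-sided exact permutation p = 0.114, adjusted 0.171 over 9 tests). Per length, the FPKM ratio averaged 1.96, 1.48 and 2.08, and in postSTC7 alone it was 0.987. The log2 ratio of Mylk to Ppp1r12a, the kinase over the targeting subunit of the opposing phosphatase, was 1.91 ± 0.26, 2.27 ± 0.10 and 2.23 ± 0.20 in the same order. It was 0.36 higher in postSTC than in preSTC (two-sided exact permutation p = 0.0571, adjusted 0.171). The log2 ratio of Myocd to Srf, coactivator over DNA-binding partner, was -3.76 ± 0.18, -3.12 ± 0.32 and -2.96 ± 0.44. The postSTC and preSTC ranges did not overlap for Myocd to Srf, a difference of 0.65 (exact permutation p = 0.0286, adjusted 0.129), nor did preSTC and preCTC, a difference of -0.80 (exact permutation p = 0.0286, adjusted 0.129). With 4 libraries against 4, 0.0286 is the smallest p that the 70 splits allow. With one library left out, the difference in Myocd to Srf between postSTC and preSTC ran from 0.51 to 0.74. Srf itself was at 85.7 ± 1.67, 75.2 ± 5.29 and 87.6 ± 8.02 CPM and was not called in any comparison.

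**Figure D3:**
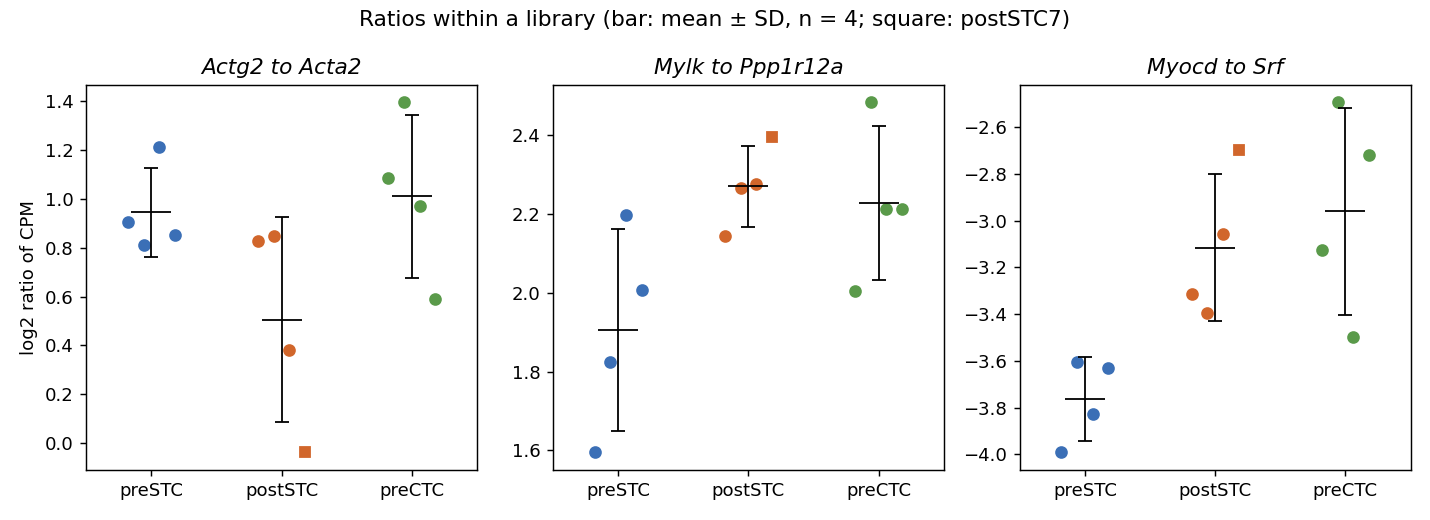
log2 CPM ratios of Actg2 to Acta2, Mylk to Ppp1r12a and Myocd to Srf in each library, with the mean and SD of each group. In Myocd to Srf every preSTC library lies below every postSTC and preCTC library, and in Actg2 to Acta2 postSTC7 lies lowest.

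A further 66 genes of contraction were taken from 7 lists, and all of them were tested. These lists too were chosen with earlier results of these data known, so their counts are a description. In postSTC against preSTC 23 were higher and 0 lower (edgeR), with a median log2 fold change of 0.46, beside 11.1% higher and 6.9% lower of all genes tested. With the replicate number as a block and all 12 libraries, 15 were higher and 1, Ednrb, was lower at -0.57 (edgeR, adjusted p = 0.0464), and with the block and 8 libraries 0 passed. In preSTC against preCTC 37 were lower and 4 higher, with a median of -0.77, beside 19.6% lower and 19.1% higher of all genes. In postSTC against preCTC 14 were lower and 1 higher, with a median of -0.22, beside 7.37% lower and 9.27% higher of all genes. Leaving out 1 library moved the 23 to as few as 12 (without preSTC5) and 13 (without preSTC1), and to 24 without postSTC7. It moved the 14 to 7 without any one of postSTC1, preCTC1, preCTC5, preCTC7 and preCTC9, to 8 without preSTC7 and to 9 without postSTC2.

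Of the 9 filament partners, 4 rose after the operation and 7 were lower in preSTC than in preCTC. Cald1, caldesmon, rose by 0.96 ± 0.21 on the log2 scale, from 222 ± 24.7 to 431 ± 110 CPM (edgeR, adjusted p = 0.0112). Csrp1, a LIM protein of actin bundles, rose by 0.88 ± 0.19 (edgeR, adjusted p = 0.0107), and Myl9, the regulatory light chain itself, by 0.83 ± 0.22 (edgeR, adjusted p = 0.0235). Smtn, smoothelin, was lower in preSTC than in preCTC, with a log2 fold change of -1.08 ± 0.16 and means of 141 ± 29.6 and 298 ± 56.0 CPM (edgeR, adjusted p = 0.000344). The Myl9 call after the operation was lost without preSTC1 or preSTC5.

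Of the 9 genes of the phosphatase and its regulators, 3 rose after the operation and 5 were lower in preSTC than in preCTC. The 3 that rose belong to the phosphatase: Ppp1r12c, a targeting subunit, by 0.52 ± 0.13 (edgeR, adjusted p = 0.0189), Ppp1cb, the catalytic subunit, by 0.42 ± 0.12 (0.0267) and Ppp1r12b, another targeting subunit, by 0.76 ± 0.21 (0.0289). Ppp1r14a, or CPI-17, which inhibits the phosphatase, was at 11.9 ± 2.77 CPM in preSTC, 18.0 ± 4.50 in postSTC and 29.2 ± 2.75 in preCTC. It was lower than preCTC both before (edgeR, adjusted p = 0.000575) and after the operation (edgeR, adjusted p = 0.0403). The latter call was lost without any one of 8 libraries. With the replicate block on 12 libraries Ppp1r12b and Ppp1r12c missed the threshold after the operation (edgeR, adjusted p = 0.0519 and 0.0536). Calls after the operation were also lost without preSTC1 or preSTC5 for Ppp1r12c, without postSTC5 or any preSTC library for Ppp1cb, and without postSTC7 or any preSTC library for Ppp1r12b.

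Of the 9 ion channel and calcium genes, 1 rose after the operation, a share at the 11.1% of all genes. It was Kcnmb1, the smooth muscle beta subunit of the BK potassium channel, which went from 33.7 ± 7.71 to 70.8 ± 8.84 CPM, a log2 fold change of 1.07 ± 0.21 (edgeR, adjusted p = 0.00612). In preSTC against preCTC 5 of the 9 were lower.

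Of the 9 receptor genes, 3 rose after the operation and 4 were lower in preSTC than in preCTC. Ptger3, a prostaglandin E2 receptor, rose by 1.53 ± 0.26 on the log2 scale, from 5.50 ± 0.491 to 15.9 ± 6.53 CPM (edgeR, adjusted p = 0.00296). Chrm2, the M2 muscarinic receptor, rose by 0.74 ± 0.16 (edgeR, adjusted p = 0.0112) and Ednra, an endothelin receptor, by 0.77 ± 0.19 (0.0193). Ednra missed the threshold with the replicate block on 12 libraries (edgeR, adjusted p = 0.112) and without postSTC5, preSTC5 or preSTC7. Tacr2, the neurokinin A receptor, was at 7.25 ± 2.00 CPM in preSTC, 12.9 ± 4.81 in postSTC and 35.0 ± 13.3 in preCTC. It was lower than preCTC by 2.27 on the log2 scale in preSTC (edgeR, adjusted p = 0.000512) and by 1.44 in postSTC (edgeR, adjusted p = 0.016).

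Of the 6 genes of cyclic GMP relaxation, 3 rose after the operation and 4 were lower in preSTC than in preCTC. Prkg1, the cyclic GMP-dependent kinase, rose by 1.81 ± 0.37 on the log2 scale, though from a low level, 0.914 ± 0.278 to 3.23 ± 1.58 CPM (edgeR, adjusted p = 0.00791). Irag1, its substrate at calcium stores, rose by 0.96 ± 0.28 (edgeR, adjusted p = 0.0337). Hspb6, a small heat shock protein phosphorylated in relaxation, rose by 1.00 ± 0.31 (edgeR, adjusted p = 0.0457), a call lost without any one of 11 of the 12 libraries. Irag1 lost its call without any one preSTC library and with the replicate block on 12 libraries (edgeR, adjusted p = 0.0526). With one library left out, the log2 fold change after the operation ran from 0.51 to 1.09 for Irag1 and from 0.53 to 1.16 for Hspb6.

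Dense plaques and dense bodies anchor the filaments, and this was the list with most calls. Of its 14 genes, 8 rose after the operation, and 10 were lower and 2 (Ldb3 and Itga8, the latter named after its value was seen) higher in preSTC than in preCTC. Palld, palladin, rose by 0.66 ± 0.10 on the log2 scale, from 86.4 ± 9.68 to 136 ± 5.40 CPM (edgeR, adjusted p = 0.00193). Tns1, tensin, rose by 1.38 ± 0.24 (edgeR, adjusted p = 0.00341). Itga5, the alpha subunit of the fibronectin receptor, was lower than preCTC both in preSTC, by 2.02 on the log2 scale, and in postSTC, by 1.21.

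Ldb3, a Z-disc protein of the same list, ran the other way. It was at 39.8 ± 5.78 CPM in preSTC, 37.4 ± 8.14 in postSTC and 10.0 ± 2.46 in preCTC. The log2 fold change was 1.99 ± 0.20 for preSTC against preCTC (edgeR, adjusted p = 2.17e-05) and 1.90 ± 0.20 for postSTC against preCTC (edgeR, adjusted p = 7.42e-05). Without postSTC7 the latter was 1.94 (edgeR, adjusted p = 0.000121). It was -0.09 for postSTC against preSTC (edgeR, adjusted p = 0.772).

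Of the 10 transcription factor genes, 1 rose after the operation: Tead1, which binds MCAT elements, by 0.28 ± 0.09 on the log2 scale (edgeR, adjusted p = 0.0432). The share is near the 11.1% of all genes called higher. That call was lost without any one of 9 libraries and with the replicate block on 12 libraries (edgeR, adjusted p = 0.109). In preSTC against preCTC 2 were lower and 1 higher, beside 38.7% of all genes called in either direction. Tead1 was lower by 0.47 on the log2 scale (edgeR, adjusted p = 0.00142) and Klf4, which opposes myocardin in muscle and is also made by epithelium, was at 280 ± 26.5 CPM against 603 ± 54.4 CPM (edgeR, adjusted p = 0.00202). Mrtfa, a myocardin-related coactivator, was higher by 0.41 ± 0.12 (edgeR, adjusted p = 0.0146).

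**Figure D4:**
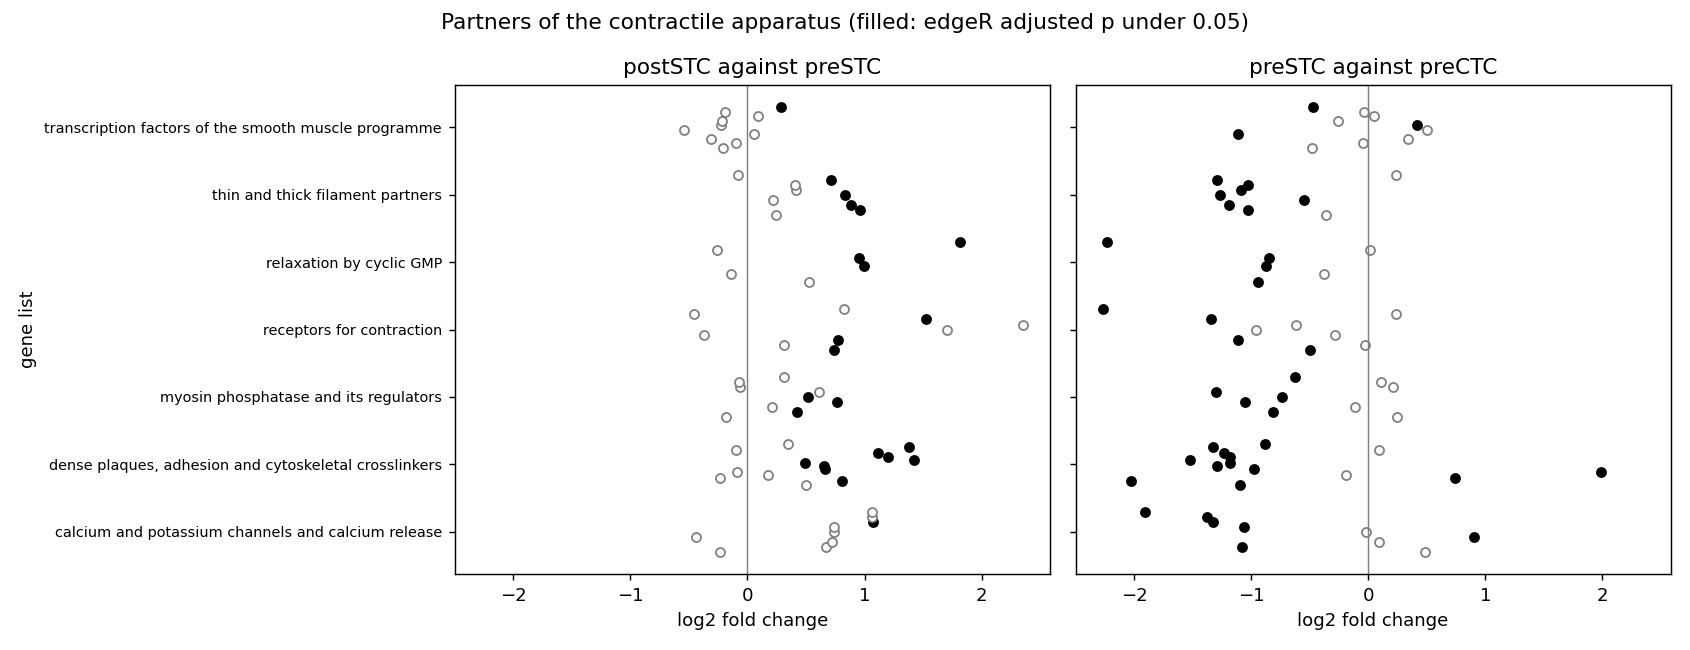
log2 fold change of the 66 other contraction genes by list, for postSTC against preSTC and preSTC against preCTC, with filled points for genes that passed the test (edgeR, adjusted p under 0.05). Called genes lie above 0 after the operation (23 of 66), and 37 of 41 called genes lie below 0 in preSTC against preCTC.

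The genes whose log2 CPM followed the mean of the 10 members most closely over the 12 libraries were Mrgprf, a Mas-related receptor (Pearson r = 0.982), Myl9 (0.978), the protease gene Tmprss9 (0.977), the Wnt acyltransferase gene Porcn (0.977) and Tpm2, beta tropomyosin (0.974). Dact3 (0.973), Csrp1 (0.971), Wfdc1 (0.970), Trim68 (0.969) and Pdlim3 (0.968) completed the first 10. Without postSTC7, Mrgprf, Tmprss9, Porcn, Tpm2 and Pdlim3 stayed among the first 6, while Myl9 ranked 12, Csrp1 13, Trim68 20, Dact3 25 and Wfdc1 26. The points share the group differences, so the list is a description without a test.

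Markers of other cell types were summed by library. For the counts of calls below, 11.1% of all genes tested were called higher and 6.9% lower after the operation. In preSTC against preCTC 19.1% were called higher and 19.6% lower. The 11 fibroblast markers summed to 2118 to 2781 CPM in preSTC, 2592 to 5010 CPM in postSTC and 6063 to 9245 CPM in preCTC, with the group medians in the same order as the members'. Of these, 5 (Dcn, Dpt, Lum, Mfap5 and Pi16) were higher in postSTC than in preSTC, and 10 of 11 were lower in preSTC than in preCTC (edgeR). The 12 epithelial markers summed to 16409 to 20750 CPM in preSTC, 8722 to 17230 CPM in postSTC and 11914 to 16853 CPM in preCTC. Of the 12, 1 passed after the operation, Vil1, a microvillus protein, which was lower (edgeR, adjusted p = 0.0374). That share is near the 6.9% of all genes called lower. In preSTC against preCTC 4 were higher and 1 lower, beside 38.7% of all genes called in either direction. The leukocyte markers found in the table summed to 319.7 to 676 CPM in preSTC, 160 to 499 in postSTC and 132 to 302 in preCTC. Of these 6 markers, 0 were called after the operation, and 2 were higher in preSTC than in preCTC (edgeR). The leukocyte medians were 388, 374 and 209 CPM in preSTC, postSTC and preCTC, and the preSTC and postSTC ranges overlapped. The mesothelial markers had medians of 15.6, 11.2 and 12.9 CPM in the same order. Markers of enteric neurons and glia summed to 93.8 to 124, 75.6 to 337 and 145 to 216 CPM, and those of Cajal cells to 101 to 122, 137 to 181 and 230.2 to 389 CPM. Of the 4 Cajal cell markers, 1 (Ano1) was higher after the operation, and 2 were lower in preSTC than in preCTC (edgeR). Most of the difference in the Cajal cell sums came from Ano1, and Kit passed no test. The 8 pericyte markers summed to 209 to 227, 217 to 354 and 253 to 395 CPM in the same order of groups, with Cspg4 and Mcam higher after the operation. The 8 endothelial markers summed to 186 to 219, 233 to 423 and 253 to 345 CPM, with Cdh5, Tek and Vwf higher. None of the fibroblast, epithelial, pericyte or endothelial markers was at 0 in a library. The 12 striated muscle markers summed to 27.6 to 121, 21.98 to 794 and 38.5 to 55.9 CPM, and the high value was postSTC7 through Acta1. The part of these shifts in the members' differences was not tested.

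**Figure D5:**
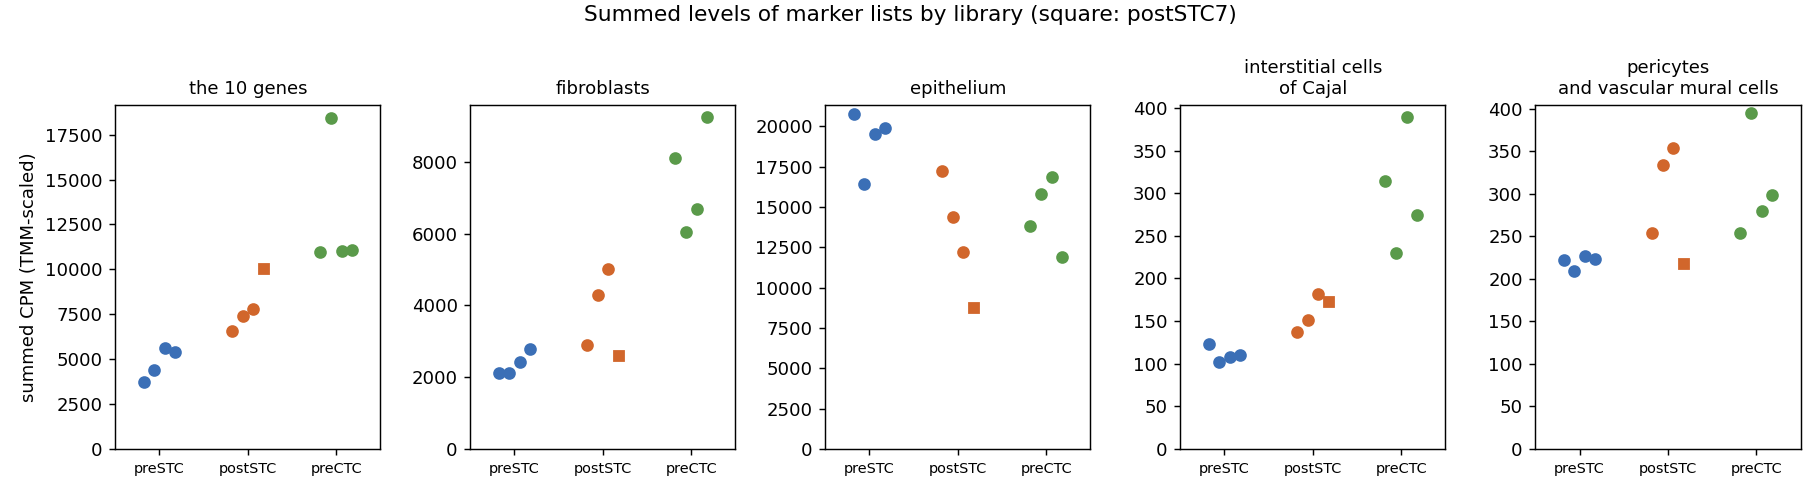
Summed CPM (linear axes from 0) of the 10 genes and of 4 marker lists in each library, by group, with a square for postSTC7. The preCTC libraries lie highest for the 10 genes and for the summed markers of fibroblasts and Cajal cells, the latter mostly through Ano1. Epithelial markers reach highest in preSTC, and postSTC7 is lowest of all for epithelium at 8722 CPM.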

How the data were processed

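Poly(A) RNA from 12 intestinal samples was sequenced. Per the submitters' processing notes the authors used fastp, HISAT2 and HTSeq with the mRatBN7.2 assembly, in no stated order, and with no version named. The authors deposited a table of read counts per gene and, beside them, FPKM values, which within a gene are proportional to count over library total (largest relative deviation 6.66e-16). The series' design text describes another tissue source, kit and pipeline and was not used. How reads matching several genes were counted, and whether strand was used, is not given in the sources used here.

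From the deposited counts, genes were filtered with filterByExpr (15704 of 18749 genes kept, 83.8%, all 10 members among them), scaled with TMM and fitted with edgeR 4.0.16 (quasi-likelihood, group only, all 12 libraries) in R 4.3.3, with Benjamini-Hochberg adjustment over all tested genes. The common biological coefficient of variation was 0.322. SE is the log2 fold change over the square root of F. CPM are TMM-scaled. Ratios were tested by exact two-sided permutation, adjusted over 9 tests. FPKM were used for levels between genes and, as log2(FPKM + 1), in a limma 3.58.1 fit. DESeq2 1.42.0, voom, other scalings, no filter, a replicate block and each library left out were the alternatives. Each library counted as 1 replicate. Counts of libraries within a group differed beyond sampling noise, which does not show that they came from separate animals. The fitting was tested on simulated data. Total counts of 30095656 to 39374682 a library make counting error small beside the spread of replicates for abundant genes. It weighs more in genes of low level, such as Prkg1 at a mean of 0.914 CPM in preSTC. Intervals of counts cover counting error only.

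Replicate numbers of the labels are shared between groups. Deviations of same-numbered postSTC and preSTC libraries from their group means correlated at 0.236, 0.158 and 0.168 for numbers 1, 5 and 7. Each of these postSTC libraries matched its own number best. The correlations are weak and the labels state no pairing, so whether the numbers pair samples is not established. For preSTC and preCTC the correlations were 0.222, -0.028, 0.171 and 0.145, and for postSTC and preCTC 0.220, -0.016 and 0.054. In both, number 5 did not match its own number best.

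The members, the 66 contraction genes and the marker lists were chosen with earlier results of these data known. Named contraction genes come from the up to 3 called genes of lowest p in each list and comparison, and Ednrb was named from the blocked fit. Some genes that this rule names are not reported here. The marker names Jchain and Spink3 matched no row.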

Additional observations from a re-analysis of the deposited data

Results flagged for a closer look

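Dixon's test marked 3 values as far from the other libraries of their group, and all 3 are of postSTC7. Myh11 was at 2422 CPM there, against 1303 to 1400 CPM in the other postSTC libraries. Mylk was at 1609 CPM, against 993 to 1038 CPM, and Synpo2 at 256 CPM, against 99.6 to 114 CPM. The test was run on 39 groups, of which chance marks about 1 in 20. The library with these values is the one in which 40.1% of counts came from seminal vesicle and prostate genes, and the part of that tissue in them was not tested. Without postSTC7 the log2 fold change of postSTC against preSTC was 0.55 for Myh11 (edgeR, adjusted p = 0.119), 0.38 for Mylk (0.221) and 0.99 for Synpo2 (0.00798).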

How the results depend on the processing

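Members called numbered 5 in postSTC against preSTC, 9 in preSTC against preCTC and 3 in postSTC against preCTC. Leaving out one library gave 4 to 7, 8 to 9 and 1 to 6 in that order. DESeq2 called 5 in postSTC against preCTC. Library totals without TMM gave 2 in postSTC against preSTC and 5 in postSTC against preCTC, as did limma on log2(FPKM + 1), with 2 and 5; library totals moved the median log2 fold change of all genes to -0.18 in preSTC against preCTC and -0.20 in postSTC against preCTC. The replicate block on the 8 libraries compared gave 1 and 0; it changed no call in preSTC against preCTC. The fit of these 8 libraries without a block called 4 in postSTC against preSTC, with Acta2 at an adjusted p of 0.0515. Mylk in postSTC against preCTC, 0.12, turned to -0.18 with library totals, -0.14 with limma on FPKM, -0.00479 without preCTC1. With one library left out, Mylk in that comparison ran from -0.073 (without postSTC7) to 0.34. With one library left out, the log2 ratio difference of Mylk to Ppp1r12a in postSTC against preCTC ran from -0.032 to 0.13. That of Actg2 to Acta2 in preSTC against preCTC ran from -0.20 to 0.064, and neither passed the test.

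Over all genes, calls in postSTC against preSTC numbered 2833, against 848 with library totals, 521 with limma on FPKM, 1746 with the block on 12 libraries and 66 on 8, and 1609 to 3684 with one library left out. In preSTC against preCTC they numbered 6077, against 3973 and 3824 with library totals and limma on FPKM. In postSTC against preCTC they numbered 2612, against 1560, 1668, 1399 and 151 with library totals, limma on FPKM and the block on 12 and on 8 libraries. Of the settings run on single members, 587 kept direction and side of the threshold, 16 newly passed, 23 lost the call and 4 changed sign. The causes of these changes were not tested.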

Other observations

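A pair of markers of interstitial cells of Cajal, the pacemaker cells beside gut muscle, differed in pattern; this pair was singled out after its values were seen. Ano1, a calcium-activated chloride channel, was at 22.7 ± 0.852 CPM in preSTC, 71.0 ± 24.8 CPM in postSTC and 203 ± 75.6 CPM in preCTC (SD, n = 4). It was higher in postSTC than in preSTC (log2 fold change 1.64 ± 0.28, edgeR, adjusted p = 0.00334; 1.41 without postSTC7, adjusted p = 0.00497) and lower in preSTC than in preCTC by 3.16 on the log2 scale (edgeR, adjusted p = 1.49e-05). Kit, the receptor that defines these cells, was at 38.0 ± 2.62, 40.2 ± 10.4 and 43.7 ± 8.29 CPM and passed no test (edgeR, adjusted p = 0.787 for postSTC against preSTC and 0.401 for preSTC against preCTC). Whether Ano1 and Kit differ from each other in their change was not tested.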
